A study of Mus musculus with 8 samples.

Results

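The 33 genes described here encode the enzymes, transporters, and regulators of glycolysis, the enzymes of the pentose phosphate pathway, and 3 genes of the hypoxia response. They were chosen by gene symbol from the 54146 genes of the deposited count table, and all 33 were expressed highly enough to be tested. Glycolysis splits glucose into pyruvate, and macrophages that take up much glucose can release the pyruvate as lactate. The pentose phosphate pathway branches off at the first glycolytic product and supplies NADPH, used in lipid synthesis and in antioxidant defense, and ribose for nucleotides. When oxygen is scarce, the transcription factor HIF-1 is no longer degraded and raises the transcription of many genes of glycolysis, and obese adipose tissue is known for poorly oxygenated areas.

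RNA was sequenced from macrophages of epididymal white adipose tissue (eWAT) of 4 male C57Bl6 mice. All of the mice had been fed a high-fat diet ad libitum for 24 weeks and were then kept on short-term caloric restriction (stCR) for 2 weeks, during which they received 30% less food. For its obesity model the paper describes a high-fat diet with added cholesterol. From each mouse, CD11b+ cells that were negative for lymphocyte and granulocyte markers were sorted into FCGR4+ and FCGR4- macrophages, where FCGR4 is an activating receptor for the Fc part of IgG, which gave 8 libraries. There was no unrestricted or lean group, so the data compare the populations of restricted obese mice and do not bear on stCR itself. The labels put mice 1 and 2 under one animal ID prefix and mice 3 and 4 under another, and they give no age and no further agent.

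Levels are normalized CPM, which are counts scaled to library size by edgeR's TMM method. Total counts lay between 35992794 and 66856746 per library, at which 3 counts, the smallest number read as a signal, correspond to 0.0440 to 0.0883 normalized CPM. *Fcgr4* was higher in the FCGR4+ library of 4 of 4 mice (log2 fold change 1.61, edgeR adjusted P = 0.0162). FCGR4+ and FCGR4- macrophages of the same mouse were compared in a paired model of mouse and population by the quasi-likelihood test of edgeR, with P values adjusted by Benjamini-Hochberg over 17095 genes and a threshold of 0.1. Log2 fold changes are FCGR4+ over FCGR4-, so a negative value is a lower level in FCGR4+ macrophages. A mouse is counted as lower or higher by the ratio of its own 2 libraries.

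One member passed the threshold. *Egln3*, the prolyl hydroxylase PHD3 that marks HIF for degradation and is itself a HIF target, was lower in FCGR4+ macrophages, and none of the 33 was higher. This was 3.03% of the members, where 1.19% of all tested genes were called lower and 0.0819% higher. The fold change was below 0 for 31 of the 33 members (93.9%) and for 50.3% of all tested genes, and its median was -0.30 for the members and -0.00254 for all genes. With 1 mouse left out at a time the members' median ran from -0.41 without mouse 1 to -0.17 without mouse 3, and in mice 1 and 2 alone it was -0.12, with 22 of 33 below 0. At an unadjusted P below 0.05, edgeR found 2 members, *Egln3* and *Aldoc*, both with the lower level in FCGR4+ cells (6.06% of the members and 9.77% of all tested genes), and DESeq2 called *Egln3* alone, where it called 5.99% of all tested genes. The difference in direction over the members was small per gene and uneven among the mice, and 32 members did not pass, with adjusted P values from 0.475 to 0.966 by edgeR.

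The promoters of 3 genes are shown because the data bear on them. *Egln3* passed the threshold, *Adm*, a further HIF target described below, passed it too, and *Bnip3*, a member of the hypoxia group, did not. Each is the 250 bases before the RefSeq transcription start on GRCm38.p6, read 5′ to 3′ along the gene's own strand, with the core of the HIF-binding site in capitals. The core was searched as ACGTG or GCGTG on both strands, so it also appears as CACGT or CACGC, and matches may overlap.
*Egln3*, chr12:54203875-54204124, minus strand: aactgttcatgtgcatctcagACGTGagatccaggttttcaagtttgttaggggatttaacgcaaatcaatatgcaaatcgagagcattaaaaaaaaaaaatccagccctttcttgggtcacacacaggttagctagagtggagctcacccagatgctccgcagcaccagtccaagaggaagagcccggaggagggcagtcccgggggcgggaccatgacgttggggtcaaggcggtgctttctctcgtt
*Adm*, chr7:110627407-110627656, plus strand: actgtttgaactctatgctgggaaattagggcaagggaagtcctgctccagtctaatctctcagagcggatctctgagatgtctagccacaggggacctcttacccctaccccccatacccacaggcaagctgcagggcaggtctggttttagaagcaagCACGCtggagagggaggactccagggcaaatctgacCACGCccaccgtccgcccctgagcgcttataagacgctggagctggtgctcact
*Bnip3*, chr7:138909507-138909756, minus strand: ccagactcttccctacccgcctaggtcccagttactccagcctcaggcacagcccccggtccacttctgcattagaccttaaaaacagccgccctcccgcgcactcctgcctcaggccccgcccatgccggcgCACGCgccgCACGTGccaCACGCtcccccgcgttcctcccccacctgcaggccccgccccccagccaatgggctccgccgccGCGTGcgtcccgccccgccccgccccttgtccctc

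The core occurred 1 time in the *Egln3* window, 2 times in that of *Adm*, and 5 times, 2 of them overlapping, in that of *Bnip3*. Among the members, 30 of 33 held it in at least 1 window, as did 41.5% of the 27025 genes with a window. The members without it were *Gpi1*, *Eno2*, and *Tpi1*. By window, 80.8% of the 47 member windows and 38.6% of all 32851 windows held it. A match is a description of the letters and not of binding, and the number of matches did not set the called member apart, since *Egln3* had 1 and *Ldha*, which was not called, had 5 in a window.

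*Egln3* (ENSMUSG00000035105, mm10 chromosome 12, 54178981 to 54203860, minus strand) was measured at 0.894, 8.90, 27.5, and 8.18 normalized CPM in the FCGR4+ macrophages of mice 1 to 4. In FCGR4- macrophages of the same mice it was measured at 1.85, 28.1, 84.6, and 20.4 normalized CPM. The level was lower in FCGR4+ cells of every mouse, but the 2 groups overlap widely, with mouse 3 high and mouse 1 low in both populations. The mean was 11.4 ± 11.3 normalized CPM (SD, n = 4) in FCGR4+ and 33.7 ± 35.7 (SD, n = 4) in FCGR4- macrophages. Between the highest and the lowest mouse the level differed 30.8-fold in FCGR4+ and 45.8-fold in FCGR4- cells, while within a mouse the log2 ratio stayed between -1.66 and -1.02. On the log2 scale the fitted fold change was -1.43 (SE 0.167, 95% interval -1.82 to -1.04), a level 2.70-fold lower in FCGR4+ macrophages, and it passed at an edgeR adjusted P of 0.0214. With each mouse left out in turn it still passed, with adjusted P values from 0.0428 to 0.0920 by edgeR. In a fit without the pairing by mouse it did not pass (edgeR adjusted P = 0.928), and neither did it in mice 1 and 2 alone (0.176) or in mice 3 and 4 alone (0.105).

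**Figure D1:**
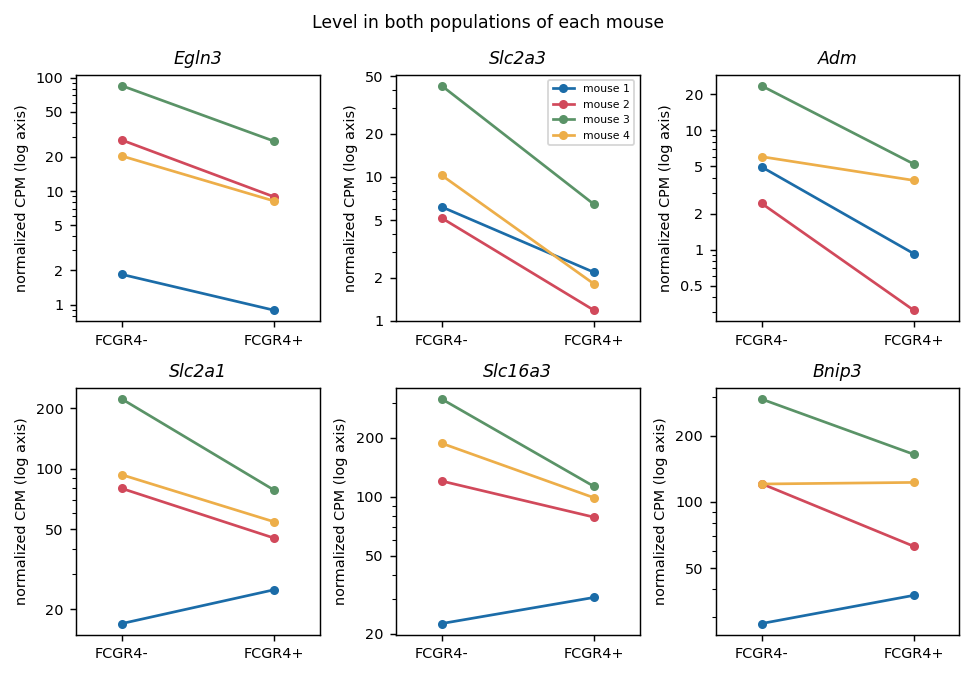
Normalized CPM on a log axis in FCGR4- (left) and FCGR4+ (right) macrophages, with 1 line per mouse, for 3 genes that passed the threshold (upper row) and 3 that did not (lower row). *Egln3* goes down from FCGR4- to FCGR4+ in each mouse while the mice lie up to 45.8-fold apart, whereas *Slc2a1*, *Slc16a3*, and *Bnip3* go up in mouse 1.

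The other hypoxia members did not pass. *Hif1a*, the oxygen-regulated subunit of HIF-1, was measured at 103.3, 106.8, 156.3, and 126.9 normalized CPM in FCGR4+ cells of mice 1 to 4 and at 67.0, 162.1, 305.4, and 157.4 in FCGR4- cells. It was thus the higher of the pair in FCGR4+ cells of mouse 1 and the lower in the others (log2 fold change -0.32, 95% interval -0.92 to 0.28, edgeR adjusted P = 0.679). Its fitted value was -0.11 without mouse 3 and -0.63 without mouse 1. *Bnip3*, a mitochondrial protein that promotes mitophagy, was measured at 37.6, 62.8, 164.4, and 122.5 normalized CPM in FCGR4+ and at 28.0, 120.9, 293.1, and 120.5 in FCGR4- cells (log2 fold change -0.34, edgeR adjusted P = 0.663). Mice 2 and 3 were lower in FCGR4+ cells, and mice 1 and 4 were not. The fitted value of *Bnip3* was -0.10 without mouse 2 and -0.59 without mouse 1. Of the *Bnip3* sequence, 47.2% also occurs in other genes, so part of its counts may belong to a copy.

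A list of 30 further hypoxia-response genes, which also holds HIF subunits and hydroxylases, was read in the same fit. Of the 26 tested, 1 passed as lower and 0 as higher, 20 had a negative fold change, and the median was -0.25. The gene that passed was *Adm*, which encodes the vasodilator peptide adrenomedullin. It was measured at 0.927, 0.312, 5.21, and 3.80 normalized CPM in FCGR4+ cells of mice 1 to 4 and at 4.93, 2.44, 23.5, and 5.99 in FCGR4- cells. Each mouse was lower in FCGR4+ cells, mouse 4 by the least, and the groups overlap. The fitted value was -2.00 on the log2 scale (SE 0.387, edgeR adjusted P = 0.0988), close to the threshold. Of the 4 fits that leave out a mouse, it passed in 1, the one without mouse 4 (edgeR adjusted P = 0.0445). Without mouse 1, 2, or 3 the adjusted P lay between 0.251 and 0.270. Nor did it pass without the pairing by mouse (edgeR adjusted P = 0.885), in mice 1 and 2 alone (0.111), or in mice 3 and 4 alone (0.192). DESeq2, which called 5.99% of all tested genes, called 4 genes of this list lower and 1 higher, which are named here after their values were seen. Besides *Adm* they were *Vegfa*, the angiogenic growth factor (edgeR log2 fold change -1.01, adjusted P = 0.224), *Ndrg1*, a stress-responsive gene (-0.72, 0.139), and *P4ha2*, a collagen prolyl hydroxylase subunit (-1.70, 0.153), with *Car9*, a carbonic anhydrase, as the higher one (0.70, 0.271). In edgeR, *Ndrg1* passed when 10 counts were required in every library (adjusted P = 0.0887), with the newer quasi-likelihood method (0.0685), and without a filter (0.0373). With each mouse left out in turn it did not pass (edgeR adjusted P from 0.254 to 0.339). At an unadjusted P below 0.05, edgeR found 6 of the 26 genes of this list, 5 of them lower, and 9.77% of all tested genes.

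Glucose enters macrophages mainly through the facilitative transporter GLUT1, encoded by *Slc2a1*. *Slc2a1* was measured at 25.0, 45.1, 78.1, and 54.4 normalized CPM in FCGR4+ cells of mice 1 to 4 and at 17.0, 79.6, 221.6, and 93.1 in FCGR4- cells. Mice 2 to 4 were lower in FCGR4+ cells, with log2 ratios of -0.82, -1.50, and -0.78, and mouse 1 was higher, with 0.56. The fitted log2 fold change was -0.65 (95% interval -1.38 to 0.08, edgeR adjusted P = 0.547), with -0.37 without mouse 3 and -1.03 without mouse 1. Among 30 further genes of glycolysis and hexose transport, of which 23 were tested, the neuronal-type transporter GLUT3, encoded by *Slc2a3*, was the 1 gene called lower, and 0 were called higher. *Slc2a3* was measured at 2.17, 1.19, 6.45, and 1.81 normalized CPM in FCGR4+ cells and at 6.19, 5.18, 43.0, and 10.3 in FCGR4- cells of mice 1 to 4. Each mouse was lower in FCGR4+ cells, and the groups overlap only through FCGR4+ cells of mouse 3. The fitted value was -2.23 on the log2 scale (SE 0.252, edgeR adjusted P = 0.0195), and it passed with each mouse left out but not without the pairing by mouse (edgeR adjusted P = 0.471) or in mice 1 and 2 alone (0.166). The median of the 23 genes was -0.10, with 15 below 0.

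Markers of several other cell types were also lower in FCGR4+ libraries. Of the mast cell and basophil markers 10 of 11 tested were called lower, of the neutrophil markers 5 of 8, of the fibroblast markers 8 of 10, of the T and NK cell markers 6 of 11, of the B cell markers 4 of 7, of the dendritic cell markers 4 of 10, and of the mesothelial markers 1 of 6. None of these lists had a gene called higher, and of the macrophage markers 0 of 12 were called in either direction, at summed levels of 30598.6 to 55092.7 normalized CPM in FCGR4+ and 24432.8 to 48518.2 in FCGR4- libraries. Their summed level was nevertheless higher in the FCGR4+ library of 4 of 4 mice, and 10 of the 12 had a positive fold change (median 0.49). DESeq2 called 7 of these 12 higher in FCGR4+ cells, and edgeR found the same number at an unadjusted P below 0.05. Of the endothelial (8 tested), adipocyte (8), erythroid (5), cycling (10), and isolation stress (10) markers, edgeR called 0, with 2, 2, 0, 5, and 1 at an unadjusted P below 0.05. DESeq2 called 1 endothelial marker lower, 3 cycling markers higher, and 0 of the other lists. The summed level of the cycling markers was higher in the FCGR4+ library of 4 of 4 mice, at 249.3 to 425.4 normalized CPM against 142.6 to 380.4. The summed level of the mast cell and basophil markers was 14.5 to 31.2 normalized CPM in FCGR4+ and 396.4 to 2192.0 in FCGR4- libraries, led by *Mcpt4*, *Tpsab1*, and *Fcer1a*. That of the neutrophil markers, such as *S100a8* and *S100a9*, was 78.6 to 494.8 in FCGR4+ and 345.4 to 2107.4 in FCGR4- libraries, and *Mpo* had fewer than 3 counts in each FCGR4+ library. That of the fibroblast markers was 155.6 to 290.4 and 395.9 to 1596.4 normalized CPM. In FCGR4- libraries, *Egln3*, *Slc2a3*, and *Adm* were highest in mouse 3, as were the neutrophil (2107.4), fibroblast (1596.4), and mesothelial (46.4) sums. The mast cell and basophil sum was lowest in mouse 3 (396.4) and highest in mouse 1 (2192.0). Highest in mouse 4 was the B cell sum (3898.1), and highest in mouse 2 were the T and NK cell (59.1) and dendritic cell (126.2) sums. The part of these cells in the 3 calls was not tested, and in sorted bulk samples fewer cells of a type and less RNA per cell cannot be told apart.

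Hexokinases phosphorylate glucose and so commit it to the cell. Levels of different genes are compared per length, which here is the length of all annotated exons of a gene and not of a transcript. Per length, *Hk3* was the most abundant of the 3 forms in each library, at 35.5 ± 3.26 CPM per kilobase (SD, n = 4) in FCGR4+ and 33.7 ± 7.35 in FCGR4- macrophages. *Hk1*, the ubiquitous form, stood at 4.76 ± 1.98 and 6.99 ± 1.80, and *Hk2*, the HIF-inducible form, at 2.78 ± 0.967 and 3.64 ± 2.10 CPM per kilobase. *Hk3* made up 82.6% ± 3.26 (SD, n = 4) of the family in FCGR4+ and 76.5% ± 4.31 in FCGR4- cells, a higher share in FCGR4+ cells of 3 of 4 mice. In the exact permutation test of the 4 paired differences, at least 2 of the 16 sign changes are as extreme as the data, so no P can reach the threshold. The log2 ratio of *Hk3* to *Hk1* differed by 0.71 ± 0.686 (SD, n = 4, exact P = 0.250, adjusted over 10 ratios 0.625). *Hk1* was measured at 45.4, 62.0, 23.2, and 31.9 normalized CPM in FCGR4+ and at 40.3, 63.1, 77.5, and 57.6 in FCGR4- cells of mice 1 to 4. Mice 1 and 2 were level within 0.17 on the log2 scale, and mice 3 and 4 were lower in FCGR4+ cells by log2 ratios of -1.74 and -0.85. The fitted log2 fold change of *Hk1* was -0.60, and -0.245 without mouse 3. The test of the difference between the ID prefixes gave an adjusted P of 0.304 by edgeR, the lowest of the 33 members. *Hk3*, at a log2 fold change of 0.10, was 1 of the 2 members with a positive fold change.

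The 7 genes of upper glycolysis, from glucose 6-phosphate to the triose phosphates, all had negative fold changes, from -0.75 to -0.24, and 0 passed (edgeR adjusted P from 0.475 to 0.851). *Aldoc*, the brain-type aldolase, had the lowest fold change of the members that did not pass, at -0.75 (95% interval -1.44 to -0.06). It was measured at 2.17, 7.22, 5.33, and 5.13 normalized CPM in FCGR4+ and at 3.83, 18.5, 11.01, and 4.28 in FCGR4- cells of mice 1 to 4, so mouse 4 went the other way. It made up only 0.486% ± 0.138 (SD, n = 4) of aldolase per length in FCGR4+ and 0.687% ± 0.378 in FCGR4- cells, the rest being the muscle-type and ubiquitous *Aldoa*. *Aldoa* was measured at 582.8, 962.9, 1052.2, and 916.4 normalized CPM in FCGR4+ and at 612.0, 1312.7, 1715.9, and 993.4 in FCGR4- cells. It was lower in FCGR4+ cells of 4 of 4 mice, by log2 ratios from -0.71 to -0.07 (log2 fold change -0.33, 95% interval -0.69 to 0.02, edgeR adjusted P = 0.531). *Gpi1*, glucose 6-phosphate isomerase, was lower in 4 of 4 mice as well, by log2 ratios from -0.65 to -0.02 (log2 fold change -0.32, edgeR adjusted P = 0.533). *Tpi1*, triose phosphate isomerase, had a log2 fold change of -0.25 (95% interval -0.62 to 0.13).

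Phosphofructokinase sets the pace of glycolysis and is built from liver, muscle, and platelet subunits. *Pfkl* made up 66.1% ± 11.04 (SD, n = 4) of the family per length in FCGR4+ and 63.5% ± 13.3 in FCGR4- cells, *Pfkp* 30.2% ± 9.99 and 33.1% ± 11.3, and *Pfkm* the small remainder. These shares depend on the annotated exon length, which was 13401 bases for *Pfkp* and 6675 for *Pfkl*. Without the length, *Pfkl* and *Pfkp* had means of 95.3 and 82.7 normalized CPM in FCGR4+ and 138.0 and 121.7 in FCGR4- cells. In mouse 1 the 2 genes were near equal per length, at 49.9% and 44.9% in FCGR4+ and 44.8% and 48.5% in FCGR4- cells. In mice 2 to 4 *Pfkl* held 65.5% to 76.1%. In normalized CPM, *Pfkl* of mouse 1 stood at 59.8 in FCGR4+ and 38.6 in FCGR4- cells, below *Pfkp* in both. *Pfkp* was measured at 108.0, 90.6, 67.8, and 64.4 normalized CPM in FCGR4+ and at 84.0, 118.4, 161.6, and 122.6 in FCGR4- cells of mice 1 to 4 (log2 fold change -0.56, edgeR adjusted P = 0.544). *Pfkl* had a log2 fold change of -0.37 (edgeR adjusted P = 0.648), and both subunits were lower in FCGR4+ cells of mice 2 to 4 and higher in mouse 1. Without mouse 3 the fitted values were -0.18 for *Pfkl* and -0.33 for *Pfkp*, and without mouse 1 they were -0.69 and -0.86. *Pfkm* was near the low end of the members, at 0.942 to 3.41 normalized CPM.

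**Figure D2:**
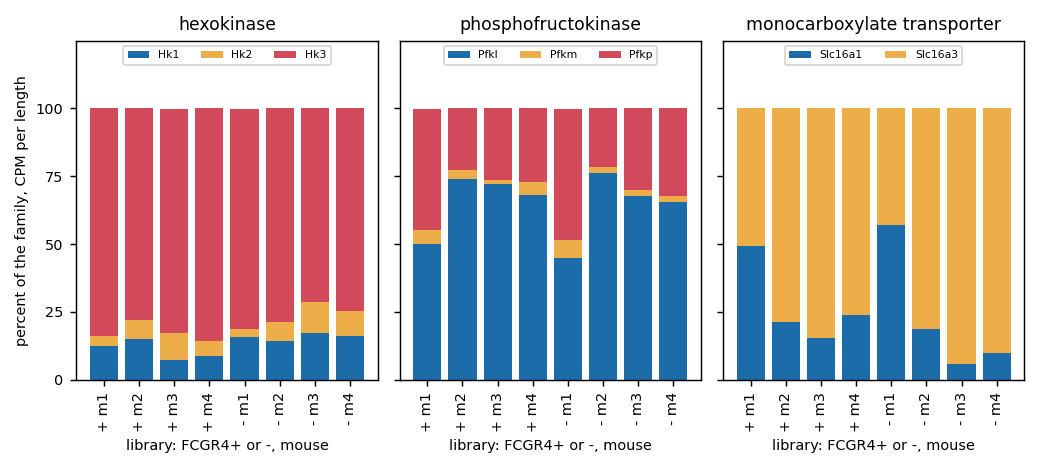
Share of each form in its family, in percent of the summed CPM per length, in the 4 FCGR4+ libraries (+) and the 4 FCGR4- libraries (-) of mice 1 to 4 (m1 to m4). Length is that of all annotated exons of a gene. *Hk3* holds most of hexokinase in each library, and the libraries of mouse 1 differ from the rest in phosphofructokinase and in the lactate transporters.

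The 6 genes of lower glycolysis, from glyceraldehyde 3-phosphate to pyruvate, also all had negative fold changes, within a narrow range from -0.40 to -0.20, and 0 passed (edgeR adjusted P from 0.524 to 0.784). *Pkm*, pyruvate kinase, was measured at 894.5, 1224.5, 1766.6, and 1636.4 normalized CPM in FCGR4+ and at 841.5, 1663.8, 3363.4, and 2051.7 in FCGR4- cells of mice 1 to 4. Mouse 1 was slightly higher in FCGR4+ cells and the others were lower (log2 fold change -0.40, 95% interval -0.82 to 0.02). *Gapdh*, often used as a reference gene, was measured at 502.7, 772.0, 1106.7, and 947.6 normalized CPM in FCGR4+ and at 479.5, 907.5, 1626.5, and 999.7 in FCGR4- cells. It thus differed 3.39-fold among the FCGR4- libraries, more than it did between the populations of any mouse, whose log2 ratios ran from -0.56 to 0.07. *Pgk1*, *Pgam1*, and *Eno1* had log2 fold changes of -0.32, -0.31, and -0.36, and *Eno2*, the neuronal enolase, of -0.20. *Eno1* held 99.2% to 99.9% of enolase per length in each library.

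Several of these genes have near-identical copies, mostly processed pseudogenes, and pairs that mapped to several places were counted at each. Of the sequence of *Pgk1*, 53.9% also occurs in other genes, and the counts listed for its copies were 103% to 126% of its own. These figures were 26.0% and 112% to 118% for *Eno1*, 25.1% and 76.4% to 79.5% for *Gapdh*, 36.2% and 40.6% to 47.7% for *Pgam1*, 25.8% and 21.1% to 24.7% for *Pkm*, and 20.99% and 11.5% to 19.05% for the lactate dehydrogenase gene *Ldhb*. Counts of these members are therefore uncertain in level, and for *Eno1* the copy with most counts is *Eno1b*. For *Egln3* and *Adm* no shared sequence was found.

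Pyruvate is reduced to lactate by lactate dehydrogenase and exported by monocarboxylate transporters. *Ldha*, the HIF-inducible subunit, had the highest mean per length of the members in both populations, though not the highest level in every library. The mean was 335.6 ± 77.0 CPM per kilobase (SD, n = 4) in FCGR4+ and 430.5 ± 190.9 in FCGR4- macrophages. In normalized CPM without the length, *Pkm* (1380.5) and *Eno1* (1363.1) stood above *Ldha* (1110.7) in FCGR4+ cells, as they did in FCGR4- cells. *Ldha* held 97.1% to 99.3% of the 2 subunits in each library. *Ldha* had a log2 fold change of -0.27 (95% interval -0.69 to 0.14) and *Ldhb* of -0.27. The exporter MCT4, encoded by *Slc16a3*, was measured at 30.7, 78.8, 113.1, and 99.0 normalized CPM in FCGR4+ and at 22.6, 120.4, 315.4, and 187.6 in FCGR4- cells of mice 1 to 4. It was higher in FCGR4+ cells of mouse 1 and lower in those of mice 2 to 4, by log2 ratios down to -1.48 (log2 fold change -0.65, 95% interval -1.34 to 0.04, edgeR adjusted P = 0.527). Its fitted value was -0.38 without mouse 3 and -1.004 without mouse 1. MCT1, encoded by *Slc16a1*, lay at 16.0 to 25.6 normalized CPM, and the mice went both ways. Its log2 ratios were -0.003, -0.39, 0.10, and 0.60 in mice 1 to 4 (log2 fold change 0.08, 95% interval -0.37 to 0.53). The fold change was -0.01 when counts were scaled by library size alone. Per length, *Slc16a3* accordingly held 43.1% of the 2 transporters in FCGR4- cells of mouse 1 and 94.2% in those of mouse 3. The log2 ratio of *Slc16a3* to *Slc16a1* differed between populations by -0.72 ± 0.999 (SD, n = 4, exact permutation P = 0.375, adjusted 0.625). The exact P values of the 10 ratios of alternative forms ran from 0.250 to 1.00, in a test of 4 pairs that cannot reach the threshold.

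The regulators at the branch points had fold changes from -0.24 to -0.06 and 0 of 4 passed. *Pfkfb3* and *Pfkfb4* make and remove fructose 2,6-bisphosphate, the activator of phosphofructokinase, and had log2 fold changes of -0.10 and -0.24. *Pdk1* and *Pdk3*, kinases that switch off pyruvate dehydrogenase, had -0.06 and -0.23. *Pdk1* was higher in FCGR4+ cells of mice 1 and 2 and lower in those of mice 3 and 4, with log2 ratios of 0.16, 0.03, -0.23, and -0.20, but the test of the difference between the ID prefixes gave an adjusted P of 0.507 by edgeR. Of 12 further genes of pyruvate entry into the mitochondrion and its control, with the kinases *Pdk2* and *Pdk4* among them, 0 passed in edgeR (1 at an unadjusted P below 0.05) or in DESeq2, and their median was 0.10. The lowest adjusted P among them was that of *Pdp1*, the phosphatase that switches pyruvate dehydrogenase on, at 0.488 by edgeR (log2 fold change 0.41).

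The 5 pentose phosphate genes had fold changes from -0.31 to -0.03, and 0 passed (edgeR adjusted P from 0.513 to 0.966). *G6pdx*, the first and rate-limiting enzyme, was measured at 144.2, 148.3, 109.8, and 103.1 normalized CPM in FCGR4+ and at 137.8, 132.4, 148.5, and 138.3 in FCGR4- cells of mice 1 to 4. Mice 1 and 2 were higher and mice 3 and 4 lower in FCGR4+ cells, and the test of this difference between ID prefixes gave an adjusted P of 0.327 by edgeR. *Taldo1*, transaldolase, was measured at 169.0, 216.0, 246.2, and 237.7 normalized CPM in FCGR4+ and at 210.2, 236.0, 351.3, and 283.3 in FCGR4- cells. It was lower in FCGR4+ cells of 4 of 4 mice (log2 fold change -0.30, 95% interval -0.61 to 0.00, edgeR adjusted P = 0.513), as was *Pgd*, 6-phosphogluconate dehydrogenase (-0.31). *Tkt*, transketolase, was nearly flat, at 203.5 to 249.9 normalized CPM over the 8 libraries (log2 fold change -0.03, 95% interval -0.34 to 0.27). *Rpia*, ribose 5-phosphate isomerase, was the member with the fewest counts, 10 in the lowest library, and only its FCGR4+ library of mouse 3 reached 1.77 normalized CPM while the others lay between 0.208 and 0.616. Of 8 further genes of the pathway tested, 0 passed in edgeR (0 at an unadjusted P below 0.05) or in DESeq2, with a median of 0.17 and the lowest adjusted P for *H6pd*, the enzyme of the endoplasmic reticulum (log2 fold change -0.37, edgeR adjusted P = 0.543).

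Other routes of glucose were read from lists of their own. Of 13 glycogen genes 0 passed in edgeR (1 at an unadjusted P below 0.05) or in DESeq2, with a median of -0.22 and the lowest adjusted P for the glycogen synthase *Gys1* (log2 fold change -0.70, 0.502 by edgeR). Of 7 genes of glucose sensing 0 passed in edgeR (1 at an unadjusted P below 0.05), with a median of -0.07, and DESeq2 called 1. The lowest adjusted P there was that of *Mlxipl*, the glucose-responsive transcription factor ChREBP, at 0.303 by edgeR (log2 fold change 2.31), and it was the gene DESeq2 called (adjusted P = 0.0206). It also passed with edgeR's newer quasi-likelihood method (adjusted P = 0.0829) and in edgeR without a filter on low counts (0.0357). Those settings called 629 and 1054 genes in all. *Mlxipl* was measured at 1.18, 3.20, 1.09, and 1.31 normalized CPM in FCGR4+ and at 0.0308, 0.942, 0.433, and 0.337 in FCGR4- cells of mice 1 to 4. It was higher in FCGR4+ cells of each mouse, but the level in FCGR4- cells of mouse 1 is below the 3-count floor, so the ratio there is not a measured one. Without mouse 1 the log2 fold change was 1.68.

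The level of the members differed widely among mice. In FCGR4- macrophages the highest mouse exceeded the lowest by a median of 3.16-fold over the 33 members, against 1.63-fold over the 13923 genes with at least 10 counts in every library. In FCGR4+ macrophages these medians were 2.20-fold and 1.89-fold. In FCGR4- cells, 22 of 33 members were highest in mouse 3 and 25 were lowest in mouse 1, while mouse 3 was the highest for 25.8% and mouse 1 the lowest for 27.6% of all tested genes. In FCGR4+ cells, 18 members were highest in mouse 3 and 21 lowest in mouse 1, against 27.2% and 24.9% of all tested genes. The summed level of the members was 5847.3, 8274.5, 10464.8, and 9422.5 normalized CPM in FCGR4+ and 5504.6, 10695.0, 17858.5, and 11007.2 in FCGR4- cells of mice 1 to 4. Mouse 3 was thus the highest and mouse 1 the lowest in both populations, and the mice spread further apart in FCGR4- cells. The neutrophil marker sum was also highest in mouse 3 in both populations (494.8 normalized CPM in FCGR4+ and 2107.4 in FCGR4- cells). The erythroid marker sum was 2463.6 normalized CPM in FCGR4+ and 1961.5 in FCGR4- cells of mouse 3 and 790.8 and 578.6 in those of mouse 4, against 19.0 to 102.0 in the libraries of mice 1 and 2. The part of these cells in the pattern was not tested.

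**Figure D3:**
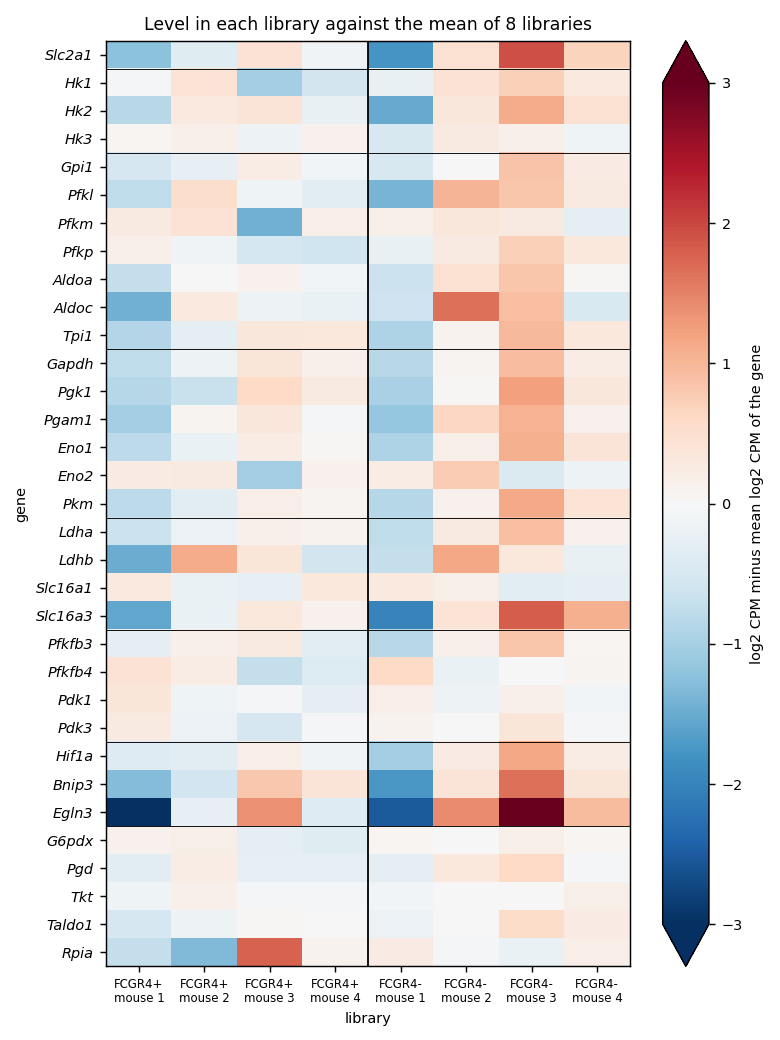
Log2 CPM of each member (rows, grouped by role from uptake at the top to pentose phosphate at the bottom) in each library (columns), minus the mean of that gene over 8 libraries. The column of FCGR4- cells of mouse 3 is the highest for most members, and both columns of mouse 1 are low from *Slc2a1* to *Egln3* for most genes, with exceptions such as *Pfkfb4* and *Slc16a1*.

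The direction between populations went by mouse. In mouse 1, 11 of 33 members were lower in FCGR4+ cells and the median log2 ratio was 0.09, while 47.0% of all tested genes were lower. In mice 2, 3, and 4 the numbers were 28, 30, and 27, with medians of -0.39, -0.71, and -0.22, where 50.3%, 52.6%, and 50.1% of all genes were lower. Lower in 4 of 4 mice were 5 members (15.2%, against 10.4% of all tested genes), which are *Gpi1*, *Aldoa*, *Egln3*, *Pgd*, and *Taldo1*, and higher in 4 of 4 mice were 0 (8.35% of all genes). A further 16 members (48.5%, against 9.43% of all genes) were lower in mice 2 to 4 and higher in mouse 1. No member passed a test of the difference between the ID prefixes, nor did any of the 17095 genes (0.00%), though 7 members, and 13.8% of all genes, had an unadjusted P below 0.05 in it by edgeR.

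**Figure D4:**
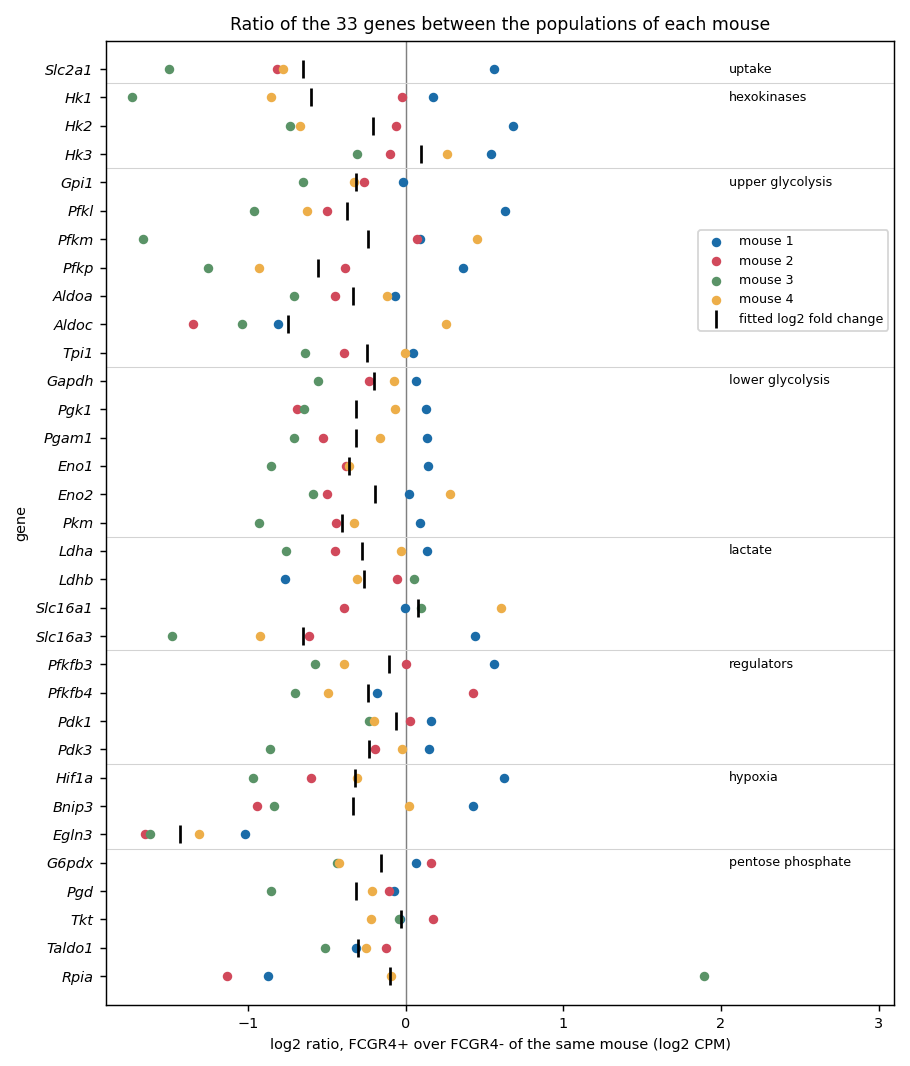
Log2 ratio of FCGR4+ to FCGR4- macrophages of the same mouse (points, 1 color per mouse) and the fitted log2 fold change (black bars) for the 33 members, grouped by role. Mouse 1 lies to the right of 0 for 22 members and mouse 3 to the left for 30, and *Egln3* is the member whose 4 points all lie at or below -1.02.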

How the data were processed

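The authors mapped read pairs to mm10 with STAR and counted them with featureCounts 1.6.3 on GENCODE M18 genes, and the deposited values are these raw counts, without normalization. Per the file headers, multi-mapping pairs were counted in full at every place, strand was not used, and pairs on several genes were left out. All per-sample columns were used (0 left out). Members and lists were chosen with earlier results of these data known. Named beside the 33 members were the genes of each other pathway list past the threshold (at most 6), or the 1 with the lowest adjusted P, and at most 3 called markers per list, with *Mpo* added as a marker near 0 counts. *Vegfa*, *Ndrg1*, *P4ha2*, and *Car9*, called by DESeq2, were added after their values were seen. *Ero1a* of the hypoxia list was not matched. A second row with the symbol *Aldoa* (0 to 14 counts) was not used.

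The 17095 genes that reached 10 counts in no fewer than 4 of the 8 libraries were scaled by TMM and fitted with edgeR 4.0.16 (R 4.3.3), quasi-likelihood test, mouse as a block, Benjamini-Hochberg adjustment, threshold 0.1. Standard errors are the log2 fold change over the square root of F, and 95% intervals use the fit's degrees of freedom. Ratios within a mouse were taken on log2 CPM after a prior count of 2. Both libraries of a number come from 1 mouse by the labels, and they deviated together (correlations of deviations across genes 0.291 to 0.428, median for different mice -0.0615). Ratios of alternative forms used counts plus 0.5, per length, and an exact two-sided permutation test. Shared sequence was counted in 50-base words over GENCODE transcripts, and promoters are RefSeq's, where 33 of 33 members were found and *Slc2a3* is not listed. Alternatives were no replicate block, DESeq2 1.42.0, other filters, scaling by RLE or by library size alone, edgeR's newer method, a threshold of 0.05, each mouse left out, and each ID prefix alone. The fits were checked on simulated data.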

Additional observations from a re-analysis of the deposited data

Results flagged for a closer look

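Among 118 sets of 4 values examined (the log2 ratios by mouse and the log2 CPM in each population for the members, *Slc2a3*, *Adm*, and *Fcgr4*, and the differences of the 10 ratios), 3 held 1 value far from the others, where chance alone gives about 1 in 20, or 5.9. In FCGR4+ macrophages of mouse 3, *Pfkm* lay at -0.03 log2 CPM while the other mice lay between 1.56 and 1.79, a gap of 0.874 of the whole range. In the same library *Eno2* lay at 1.27 log2 CPM against 2.42 to 2.56 in the others, a gap of 0.894 of the range. The difference between populations in the log2 ratio of *Pfkl* to *Pfkp* was -0.11 in mouse 2 and between 0.27 and 0.31 in the others, a gap of 0.915 of the range.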

How the results depend on the processing

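The number of called members was 1 lower and 0 higher, with 217 genes called in all, 203 lower and 14 higher. *Egln3* was the called member with DESeq2, with the other scalings and filters, with the newer method, at a threshold of 0.05, and with each mouse left out. DESeq2 called 1024 genes (832 lower, 192 higher), edgeR's newer method 629 (572 and 57), and the paired edgeR test without a filter 1054 (895 and 159), and the second-lowest adjusted P of a member with DESeq2 was 0.211. At a threshold of 0.05, 76 genes were called (74 lower, 2 higher), and with library size alone 8 were called higher. Without the pairing by mouse (no replicate block), 48 genes were called (47 lower, 1 higher) and 0 members. Mice 1 and 2 alone gave 115 (108 and 7) and mice 3 and 4 alone 72 with 61 lower, both with 0 members called, from fewer samples. With a mouse left out in turn, the genes called numbered 78 to 162, of which 76 to 153 were lower and 2 to 9 higher. The cause of these differences was not tested.

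*Egln3* had log2 fold changes from -1.57 to -1.31 over the 13 alternatives, *Slc2a3* from -2.65 to -1.81, and *Adm* from -2.66 to -1.45. In mice 1 and 2 alone the sign turned for 11 members, with 0.072 for *Hk1*, 0.30 for *Hk2*, 0.065 for *Pfkl*, 0.083 for *Pfkm*, -0.20 for *Slc16a1*, 0.28 for *Pfkfb3*, 0.12 for *Pfkfb4*, 0.093 for *Pdk1*, 0.011 for *Hif1a*, 0.11 for *G6pdx*, and 0.066 for *Tkt*. In mice 3 and 4 alone it turned for *Hk3* (-0.045) and *Rpia* (0.92), which also turned with the newer method (0.32) and with no replicate block (0.40), and with library size alone it turned for *Slc16a1* (-0.013). With a mouse left out in turn, the values of 6 members spanned 0, from -0.050 to 0.22 for *Hk3*, -0.49 to 0.20 for *Pfkm*, -0.099 to 0.26 for *Slc16a1*, -0.32 to 0.043 for *Pfkfb3*, -0.068 to 0.032 for *Tkt*, and -0.76 to 0.32 for *Rpia*. So did 3 differences between ratios of alternative forms, from -0.084 to 0.53 for *Pfkm* to *Pfkp*, -0.27 to 0.31 for *Ldhb* to *Ldha*, and -0.32 to 0.067 for *Pfkfb4* to *Pfkfb3*. None of the values that turned had passed the test. The lowest library held 10 counts of *Rpia*, 15 of *Adm*, 53 of *Egln3*, 57 of *Slc2a3*, and 59 of *Pfkm*, so the error of these genes includes more counting error than that of the other members, which had at least 129.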
